A study of Homo sapiens with 6 samples.

Results

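Described here are 6 genes of glucose breakdown in C4-2B prostate cancer cells and a subline selected in abiraterone: the glycolysis enzymes GPI, GAPDH, PGK1 and LDHA, the regulator PFKFB4 and the pyruvate dehydrogenase kinase PDK1. The members were taken by gene symbol, and each matched a single row among the 6018 genes of the authors' deposited table. They were picked because that table lists them as changed in the same direction, so their fold changes are a description and support nothing further.

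Glycolysis splits glucose into pyruvate in the cytosol and yields ATP and NADH on the way. Pyruvate is then either reduced to lactate, which restores NAD+, or carried into mitochondria, where the pyruvate dehydrogenase complex feeds it into the citric acid cycle. Kinases of the PDK family phosphorylate and inhibit that complex, and phosphatases of the PDP family reverse this. In many cells, hypoxia-inducible factors (HIF) and MYC raise transcription of glycolysis genes. Normal prostate epithelium is known for secreting citrate rather than oxidising it.

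The series holds 3 libraries of parental cells (labelled C42B, passage 0) and 3 of the selected subline (labelled C42-B-Abi, passage 15 to 18). C4-2B is an established human line from the LNCaP lineage, given as a line derived from xenografts in castrated mice. The subline was selected in rising abiraterone, an inhibitor of androgen synthesis, from 1 to 20 µM over 6 months or more. It was maintained at 5 µM thereafter, while parental cells were passaged alongside in 1% DMSO. Both lines grew in RPMI 1640 with 10% serum. The protocol also names 10 µM abiraterone at RNA extraction in a sentence that may cover the subline alone or both lines. The labelled passage differs with the cell line, so passage and selection cannot be told apart.

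The authors' deposited table compares a condition C with a condition V by DESeq2 and gives no value per library. Its header spells C as control and V as vehicle. Parental library titles carry the letter V, but nothing in the header assigns C to either cell line. Every direction is therefore given by these letters, and which cell line each stands for is not settled here. All listed genes have p under 0.05 and a log2 fold change of at least 1.2 in size. A gene outside the list may fail on p, on size or on both, so nothing about its level follows. A gene is called here when its listed adjusted p is under 0.05. Because fewer cells of a type and less RNA per cell cannot be told apart in bulk samples, a level is an amount per library only.

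All 6 genes were called, and all 6 were higher in C. Their log2 fold changes of C over V in the authors' deposited table ran from 1.22 to 1.75, or 2.32-fold to 3.36-fold, with a median of 1.58. Among all listed genes, 46.0% were called and higher in C, and among listed protein-coding genes 31.6% (92.6% in either direction). Nothing is read from the members' count against these shares, since the members were chosen from this contrast. The levels given for each condition below were derived as the pair of means that has the listed average and the listed ratio, with equally many libraries assumed on each side. They are normalised counts without an error, and no spread between libraries can be given.

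GPI, the isomerase that turns glucose 6-phosphate into fructose 6-phosphate, lies on chromosome 19 at 34359480 to 34402413 in GENCODE release 29 (GRCh38). The authors' deposited table lists GPI (ENSG00000105220) at a mean of 5840 normalised counts, and the derived levels were 8643 in C and 3037 in V. Its log2 fold change there was 1.51 ± 0.08 (SE), a 2.85-fold difference with a 95% interval of 2.57 to 3.16 (DESeq2 adjusted p = 9.83e-86).

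GAPDH oxidises glyceraldehyde 3-phosphate and is the step that yields NADH. It lies on chromosome 12 at 6533927 to 6538374 in GENCODE release 29 (GRCh38). With a mean of 19667 normalised counts, GAPDH (ENSG00000111640) stood at rank 1 of the 2954 listed protein-coding genes in the authors' deposited table. The derived levels of GAPDH were 27837 in C and 11497 in V. The listed log2 fold change in the authors' deposited table was 1.28 ± 0.07 (SE), 2.42-fold with an interval of 2.2 to 2.67 (DESeq2 adjusted p = 9.25e-70).

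PGK1 passes a phosphate to ADP and makes the first ATP of the pathway. The gene (ENSG00000102144) lies on chromosome X at 77910739 to 78129296 in GENCODE release 29 (GRCh38). The authors' deposited table lists PGK1 at a mean of 4342 normalised counts, from which 6073 in C and 2612 in V were derived. Its log2 fold change of 1.22 ± 0.08 (SE), 2.32-fold with an interval of 2.09 to 2.58, was the smallest of the 6 in the authors' deposited table (DESeq2 adjusted p = 6.36e-55). It stood 0.02 above the smallest size listed, so a slightly smaller estimate would have left PGK1 out of the table. GAPDH stood 0.08 above that limit, and the other 4 genes between 0.31 and 0.55 above it.

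LDHA, the lactate dehydrogenase subunit that favours lactate formation from pyruvate, lies on chromosome 11 at 18394388 to 18408425 in GENCODE release 29 (GRCh38). The authors' deposited table lists LDHA (ENSG00000134333) at a mean of 4239 normalised counts, and the derived levels were 6473 in C and 2005 in V. Its log2 fold change there was 1.69 ± 0.08 (SE), or 3.23-fold with an interval of 2.91 to 3.58 (DESeq2 adjusted p = 3.89e-107). This adjusted p was the smallest of the 6.

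Both regulators had far lower levels per kilobase of exon than the enzymes, as given below. PFKFB4 makes and degrades the fructose bisphosphate that activates phosphofructokinase, and it lies on the minus strand of chromosome 3 at 48517684 to 48562015 in GENCODE release 29 (GRCh38). The authors' deposited table lists PFKFB4 (ENSG00000114268) at a mean of 200.5 normalised counts, with 304.7 in C and 96.3 in V as derived levels. Its log2 fold change there was 1.66 ± 0.15 (SE), 3.16-fold with an interval of 2.56 to 3.90 (DESeq2 adjusted p = 9.94e-26).

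PDK1, a kinase that switches off pyruvate dehydrogenase, lies on chromosome 2 at 172555373 to 172608669 in GENCODE release 29 (GRCh38). For PDK1 (ENSG00000152256) the authors' deposited table gives a mean of 433.8 normalised counts, with derived levels of 668.6 in C and 199.0 in V. The log2 fold change was 1.75 ± 0.12 (SE), the largest of the 6 in the authors' deposited table, or 3.36-fold with an interval of 2.85 to 3.96 (DESeq2 adjusted p = 6.52e-46). PFKFB4 and PDK1 had the widest standard errors of the 6 genes, at the lowest means.

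**Figure D1:**
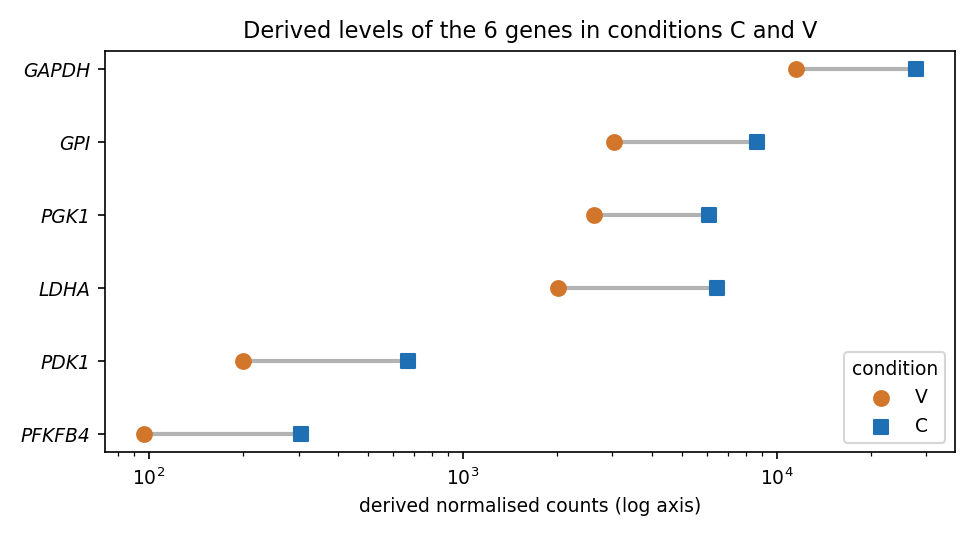
Derived levels of the 6 genes, in normalised counts on a log axis, with squares for condition C and circles for condition V; no error can be given. Each square lies to the right of its circle, from 96.3 in V and 304.7 in C for PFKFB4 up to 11497 in V and 27837 in C for GAPDH.

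Sequence before the transcription starts was not used to choose the members and is shown because the known regulators of these genes bind short words there. RefSeq starts (GRCh38.p14) were found for all 6 genes, with 8 windows in all, since LDHA and PDK1 have 2 starts each. Each window is the 250 bases before a start. The search covered both strands for ACGTG and GCGTG, the forms of the core that HIF binds, for the E-box CACGTG that MYC with MAX can bind, and for TATAAA. Each CACGTG holds ACGTG on both strands, so these matches overlap. Below, matches to the first 3 words are in capitals, in the orientation of the gene. The stretch before the second LDHA start is not shown. Stretches stop at annotated untranslated exons, and where a match lies inside such an exon only 30 bases are shown.
LDHA, first start, chr11:18394313-18394387, plus strand: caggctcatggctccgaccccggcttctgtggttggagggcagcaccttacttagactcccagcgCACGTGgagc
LDHA, first start, chr11:18394470-18394499, plus strand: gactcaCACGTGggttcccgCACGTccgcc
GAPDH, chr12:6535014-6535263, plus strand: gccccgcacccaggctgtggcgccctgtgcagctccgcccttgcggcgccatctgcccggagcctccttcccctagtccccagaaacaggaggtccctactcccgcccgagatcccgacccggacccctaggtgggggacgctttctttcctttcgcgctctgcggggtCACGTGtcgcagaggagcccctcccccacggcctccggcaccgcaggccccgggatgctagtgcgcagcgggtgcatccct
PGK1, chrX:78103998-78104173, plus strand: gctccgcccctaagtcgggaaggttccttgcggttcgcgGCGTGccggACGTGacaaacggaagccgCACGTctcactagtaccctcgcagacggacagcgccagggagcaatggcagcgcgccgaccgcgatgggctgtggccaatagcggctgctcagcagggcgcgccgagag
GPI, chr19:34364817-34364846, plus strand: aacactgcctgtaACGTGgaaggtgttcga
PDK1, second start, chr2:172556060-172556089, plus strand: ccctgctgcccgcCACGTccctCACGTacc
PFKFB4, chr3:48556891-48556982, minus strand: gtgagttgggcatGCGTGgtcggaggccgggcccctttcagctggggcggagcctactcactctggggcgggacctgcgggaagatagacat

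LDHA holds the E-box word at both places shown, at positions -185 and -87 from its first start, and a further ACGTG on the opposite strand at -73. Positions count from the start, and give the first base of the match. GAPDH holds the E-box word at -81 from the start in the table, which lies downstream of other GAPDH starts in GENCODE release 29. The windows of GPI, PGK1 and PFKFB4 also lie inside the gene spans given above, so the outermost starts of these genes were not searched. PGK1 holds GCGTG and 2 ACGTG between -211 and its start. Before its second start LDHA holds GCGTG on the opposite strand at -123. PDK1 holds 2 ACGTG on the opposite strand just before its second start and none before its first. GPI holds ACGTG once, and the PFKFB4 window holds GCGTG once and no ACGTG.

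Windows with ACGTG thus numbered 5 of 8, against 18.5% of the 35116 windows of the RefSeq table. Counted by gene, 5 of the 6 had such a window, against 21.7% of the 27305 genes of that table. For GPI and PDK1 every such match touches an annotated untranslated exon, and windows of other genes were not sorted in this way. The member windows were also rich in G and C, with a median of 68.8% against 58% over all windows. For GCGTG the count was 3 of 8 against 32.2%, for CACGTG 2 of 8 against 6.34% and for TATAAA 1 of 8 against 10.7%. Among windows of called protein-coding genes, ACGTG was found in 21.2% of those higher in C and 18.4% of those higher in V. A match is a description of letters and not a bound site, and 8 windows of 6 chosen genes give no basis for a test.

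**Figure D2:**
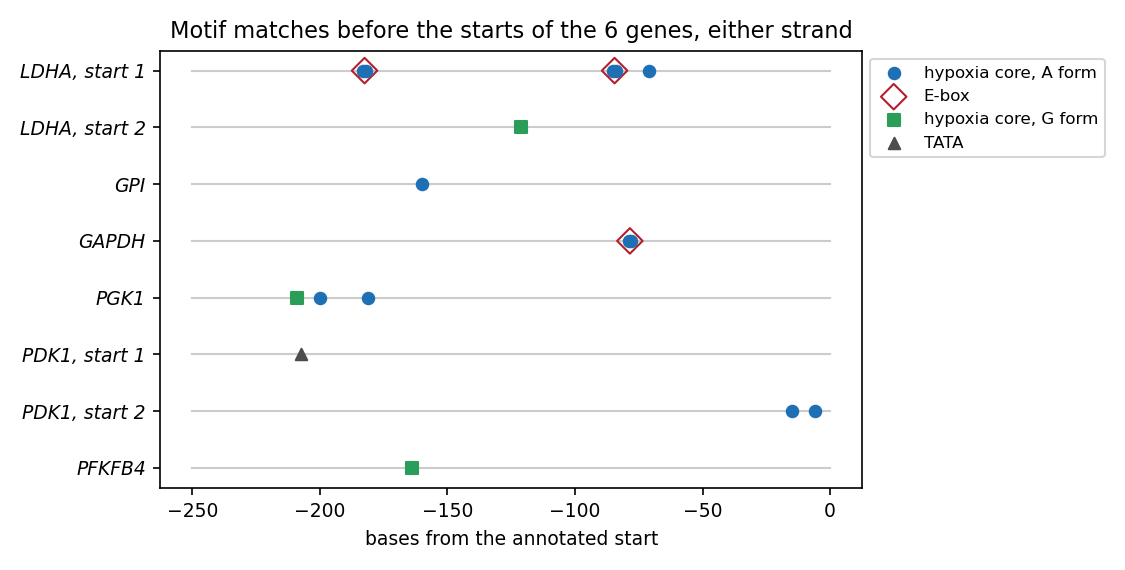
Position of each motif match, in bases from the annotated start (horizontal axis), in the 8 windows of 250 bases before the starts of the 6 genes, on either strand. Open diamonds are the E-box word, circles and squares the A and G forms of the hypoxia core and the triangle the TATA word; 5 windows hold a circle, and LDHA and GAPDH hold the diamonds.

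Ordered by log2 fold change in the authors' deposited table, the genes ran PDK1, LDHA, PFKFB4, GPI, GAPDH and PGK1. In each of the 5 neighbouring pairs of this order the 95% intervals overlapped, which does not show that the neighbours are equal. Of all 15 pairs, the intervals of 4 did not overlap: PDK1 and LDHA each lay above both GAPDH and PGK1. PDK1 exceeded PGK1 by 0.53 on the log2 scale and LDHA exceeded GAPDH by 0.41. The genes share libraries, so these differences have no standard error of their own and were not tested. Among the 4 enzymes, GPI and LDHA had larger estimates than GAPDH and PGK1, and for GPI the intervals still overlapped with both.

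Means and derived levels above are not corrected for length, so genes were ordered by level per kilobase of exon. On this scale in C, GAPDH reached 9338 normalised counts per kilobase, PGK1 1102, LDHA 1042, GPI 809.3, PFKFB4 49.9 and PDK1 44.9. The corresponding V values were 3857 for GAPDH, 473.9 for PGK1, 322.9 for LDHA, 284.4 for GPI, 15.8 for PFKFB4 and 13.4 for PDK1. GAPDH therefore stood 187-fold above PFKFB4 in C on this scale. The order of the middle genes depended on the length used: with the longest transcript, LDHA came to 2679 in C, GPI to 1991 and PGK1 to 1243. GAPDH remained highest and PDK1 lowest with either length.

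By listed mean, which also depends on gene length, the 4 enzymes ranked near the top, while no member exceeded the median difference of the genes on its side. In the authors' deposited table GPI ranked 14 by mean among listed protein-coding genes, PGK1 27 and LDHA 28, whereas PDK1 ranked 546 and PFKFB4 925. The 934 called protein-coding genes higher in C had a median log2 fold change of 1.77, above the value of every member. PDK1 exceeded 48.4% of those genes, LDHA 44.1%, PFKFB4 42.4%, GPI 32.2%, GAPDH 9.53% and PGK1 1.82%. Across all 2736 called protein-coding genes of either direction the median was -1.55.

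**Figure D3:**
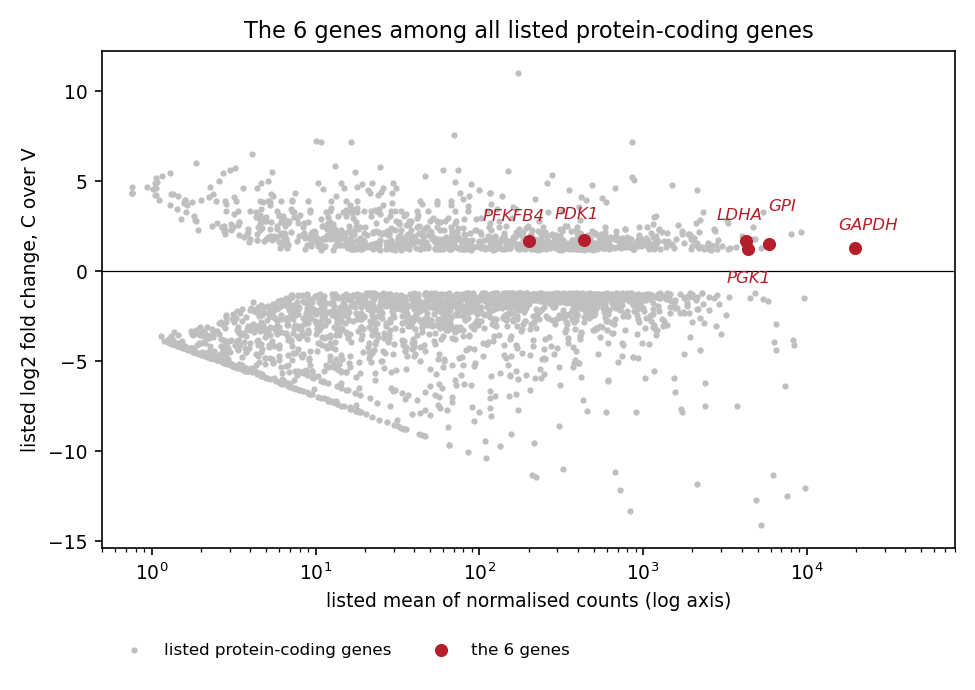
Listed log2 fold change of C over V (vertical axis) against the listed mean of normalised counts (log axis) for every listed protein-coding gene in grey, with the 6 genes in red. GAPDH has the highest mean of all, and the 6 genes lie below 1.77, the median of the called genes above 0; the empty band around 0 is the limit of 1.2 in the list.

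For each member, the listed protein-coding genes closest in log2 fold change were taken among those with a mean within 1.5 times of its own. For LDHA these were the replicative helicase subunit MCM7 (1.73 ± 0.08 in the authors' deposited table) and the histone gene H3C15 (1.77 ± 0.10), out of 29 candidates. For PGK1 they were the histone gene H4C14 (1.23 ± 0.09 in the authors' deposited table) and the fatty acid desaturase FADS2 (1.23 ± 0.08). For GPI they were LDHA itself and the creatine kinase CKB (1.29 ± 0.08 in the authors' deposited table), out of 24. PDK1 lay next to the cell-cycle genes CDCA3 (1.74 ± 0.12 in the authors' deposited table) and PKMYT1 (1.76 ± 0.11). PFKFB4 lay next to the zinc finger gene ZNF605 (1.66 ± 0.14 in the authors' deposited table). GAPDH had no listed protein-coding gene with a similar mean. This likeness is over a single comparison of 2 conditions and says only that the listed numbers are near each other.

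The surrounding pathways were described through 17 lists holding 242 different genes. Of these, 31 were listed and 30 called (12.4% of the 242), with 13 toward C and 17 toward V. Among all protein-coding genes of GENCODE release 29, 13.7% were called, 4.68% toward C and 9.03% toward V. Apart from the members, 24 pathway genes were called and 7 of those were higher in C.

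Of the 30 glycolysis enzymes and isozymes, 4 were called, and these are the 4 members GPI, GAPDH, PGK1 and LDHA (13.3%). Their median log2 fold change was 1.39 in the authors' deposited table. The remaining 26, among them the hexokinases, phosphofructokinase subunits, aldolases, TPI1, phosphoglycerate mutases, enolases, PKM and LDHB, were not among the listed genes. A row whose symbol column reads ALDOA carries another Ensembl identifier and was not counted. That row was called and higher in C, at 1.33 ± 0.42 in the authors' deposited table, with a mean of 21.5 normalised counts. PFKFB4 was the single listed gene of the 6 in its list, and PFKFB1, PFKFB2 and PFKFB3 were not among the listed genes.

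Of 13 genes for the pyruvate dehydrogenase complex, its kinases and its phosphatases, 3 were called. The kinase PDK3 was higher in C beside PDK1, at 1.41 ± 0.10 in the authors' deposited table, with derived levels of 851.1 in C and 321.0 in V. The phosphatase PDP1, which reactivates the complex, was higher in V, at -1.99 ± 0.19 in the authors' deposited table, with derived levels of 67.3 in C and 267.7 in V. PDK2, PDK4 and the subunits of the complex were not among the listed genes.

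Of 8 genes for lactate and pyruvate transport, 2 were called, both higher in C. SLC16A3, the carrier MCT4 that exports lactate, had a log2 fold change of 1.71 ± 0.10 in the authors' deposited table, with derived levels of 882.6 in C and 269.8 in V. SLC16A7, the carrier MCT2, stood at 1.98 ± 0.17 in the authors' deposited table, with derived levels of 200.2 in C and 50.9 in V. SLC16A3 thus lay within the range of the members and SLC16A7 above it.

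Of 15 genes of the glucose transporter families 4 were called, all higher in V, with a median of -2.82 in the authors' deposited table. They were SLC2A12 (-1.41 ± 0.18), SLC2A13 (-2.63 ± 0.18), SLC2A10 (-3.00 ± 0.45) and the sodium-coupled SLC5A1 (-4.07 ± 0.59), as listed in the authors' deposited table. SLC2A13 is known as a carrier of myo-inositol rather than glucose. Their derived V levels were 43.7 to 291.6 normalised counts, a range that also holds the derived V levels of PFKFB4 and PDK1. SLC2A1, the main glucose transporter of many cancer lines, was not among the listed genes.

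In the pentose phosphate pathway, which makes NADPH and pentoses, both called genes of 9 were higher in V. PGD, the phosphogluconate dehydrogenase, stood at -1.76 ± 0.08 in the authors' deposited table, with derived levels of 842.0 in C and 2854 in V. TKTL1, listed at 3.94 ± 1.77 in the authors' deposited table, was not called, at a mean of 1.60 normalised counts.

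The hexosamine pathway had 2 called genes of 7, the amidotransferases GFPT1 (-1.24 ± 0.06) and GFPT2 (-2.28 ± 0.63), with V the higher side for both in the authors' deposited table. Of 10 genes of the NADH shuttles, GPD1L was called, higher in V at -1.22 ± 0.11 in the authors' deposited table. The lists for gluconeogenesis, glycogen, serine synthesis, the citric acid cycle and the respiratory chain, both its nuclear and its mitochondrial genes, had no listed member.

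**Figure D4:**
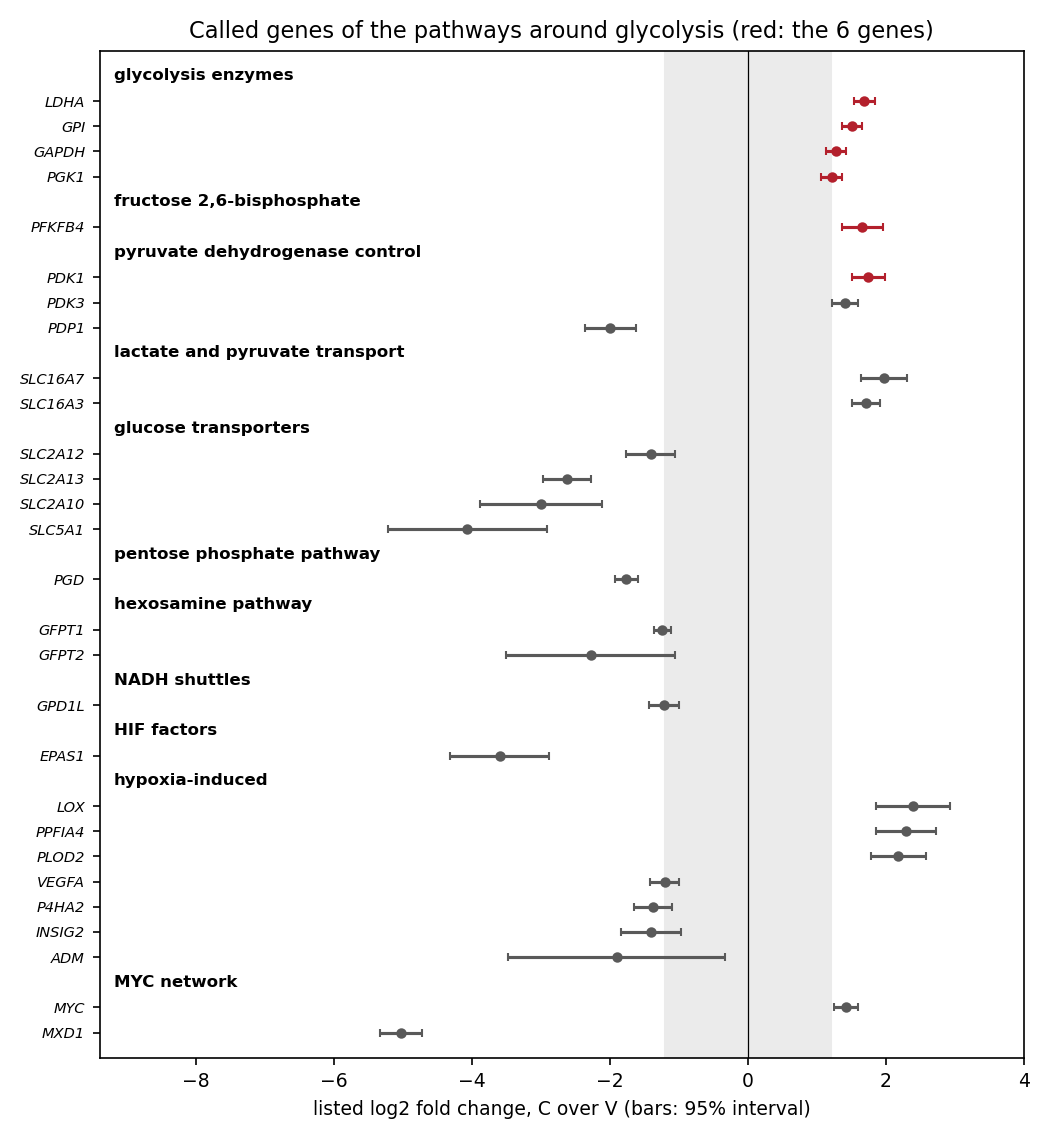
Listed log2 fold change of C over V with its 95% interval for 28 called genes of the pathway lists, grouped by role, with the 6 genes in red and the others in grey; the shaded band marks sizes under 1.2, which the table does not list. The 4 glycolysis enzymes, PFKFB4, both PDK genes and both lactate carriers lie to the right of 0, and the glucose transporters, PDP1 and the pentose phosphate and hexosamine genes shown to the left.

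The lists around HIF and MYC, factors known to raise glycolysis transcription, held called genes in both directions. Of 10 HIF genes and regulators, 1 was called: EPAS1, which encodes HIF-2 alpha, was higher in V at -3.60 ± 0.37 in the authors' deposited table, with derived levels of 9.13 in C and 110.5 in V. HIF1A was not among the listed genes. Of 25 hypoxia-induced genes outside glycolysis, 8 were called, 3 toward C and 5 toward V, with a median of -1.29 in the authors' deposited table. Higher in C were the collagen-modifying enzymes PLOD2 (2.18 ± 0.20) and LOX (2.40 ± 0.27) and the liprin PPFIA4 (2.29 ± 0.22), as the authors' deposited table gives them. Those higher in V included the angiogenic factor VEGFA (-1.21 ± 0.11), the prolyl hydroxylase P4HA2 (-1.38 ± 0.14), INSIG2 (-1.41 ± 0.22) and the peptide hormone ADM (-1.90 ± 0.80, DESeq2 adjusted p = 0.0408) in the authors' deposited table.

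In the MYC network, 2 of 12 genes were called. MYC was higher in C at 1.42 ± 0.09 in the authors' deposited table, with derived levels of 2910 in C and 1088 in V. MXD1, which competes with MYC for its partner MAX, was higher in V at -5.03 ± 0.16 in the authors' deposited table, with derived levels of 41.9 in C and 1364 in V. MYC thus lay within the range of log2 fold changes of the 6 genes, a range that begins just above the list limit of 1.2. The part of HIF factors or MYC in the members' differences was not tested. The core ACGTG, shown above before 5 of the 6 members, was counted by gene among the other called pathway genes that have a window. It was before 5 of 6 such genes higher in C and before 6 of 13 higher in V. By window the counts were 7 of 13 and 7 of 14. Of the 7 other called pathway genes higher in C and the 17 higher in V, only those 6 and 13 have a window.

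GAPDH and LDHA have pseudogene copies elsewhere in the genome, and most of the listed copies had larger fold changes than the parent genes. The list holds only sizes of at least 1.2, so copies with smaller changes are not seen. GENCODE release 29 names 62 pseudogenes GAPDHP and 6 LDHAP, of which 10 and 4 were listed and all of these called. All 4 LDHA copies were higher in C with a larger log2 fold change than LDHA, with a median of 2.50 in the authors' deposited table. The interval of LDHAP2 (1.86 ± 0.14 in the authors' deposited table) overlapped that of LDHA, and the intervals of LDHAP3, LDHAP5 and LDHAP7 lay above it.

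Of the 10 GAPDH copies, 8 were higher in C and all 8 had a larger log2 fold change than GAPDH. GAPDH stood only 0.08 above the smallest size listed, so nearly any listed copy higher in C would exceed it. The copies with listed means of 1.26 and 3.18 normalised counts had intervals that overlapped that of GAPDH. GAPDHP40 (2.07 ± 0.13) and GAPDHP44 (2.81 ± 0.12), GAPDHP70 (5.59 ± 0.17) and GAPDHP76 (7.29 ± 0.36) were the most abundant in the authors' deposited table. GAPDHP70 had derived levels of 1336 in C and 27.8 in V. GAPDHP2 (-2.20 ± 0.72) and GAPDHP73 (-4.47 ± 0.81) had their higher level in V, as the authors' deposited table lists them, at derived V levels of 11.8 and 26.3.

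How far reads of 50 bases could be divided between parent and copies was measured on transcript sequences. Of the 2251 different 50-base words in GAPDH coding transcripts, 11.2% also occur in a named GAPDH copy, and of the 3714 of LDHA 6.46% occur in an LDHA copy. In the other direction, 2.61% of the words of GAPDHP40 occur exactly in GAPDH and 8.73% of those of LDHAP5 in LDHA. GAPDHP70 and GAPDHP76 shared no such word with GAPDH, at 87.1% and 78.0% identity over the aligned bases. How the authors treated reads with several matches is not given in the sources used here, so the division of reads is uncertain for both genes. Listed copies together came to 17.4% of the parent's derived level in C and 4.91% in V for GAPDH, and to 17.6% and 10.5% for LDHA. With parent and listed copies summed, the log2 fold change was 1.44 for GAPDH and 1.78 for LDHA, an alternative chosen after the data were seen. Only copies that passed the limits of the list entered these sums, most of them higher in C, so this selection can itself raise the sums. Unlisted copies could not be added, among them GAPDHP1 and LDHAP4, which share the most words with GAPDH and LDHA.

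**Figure D5:**
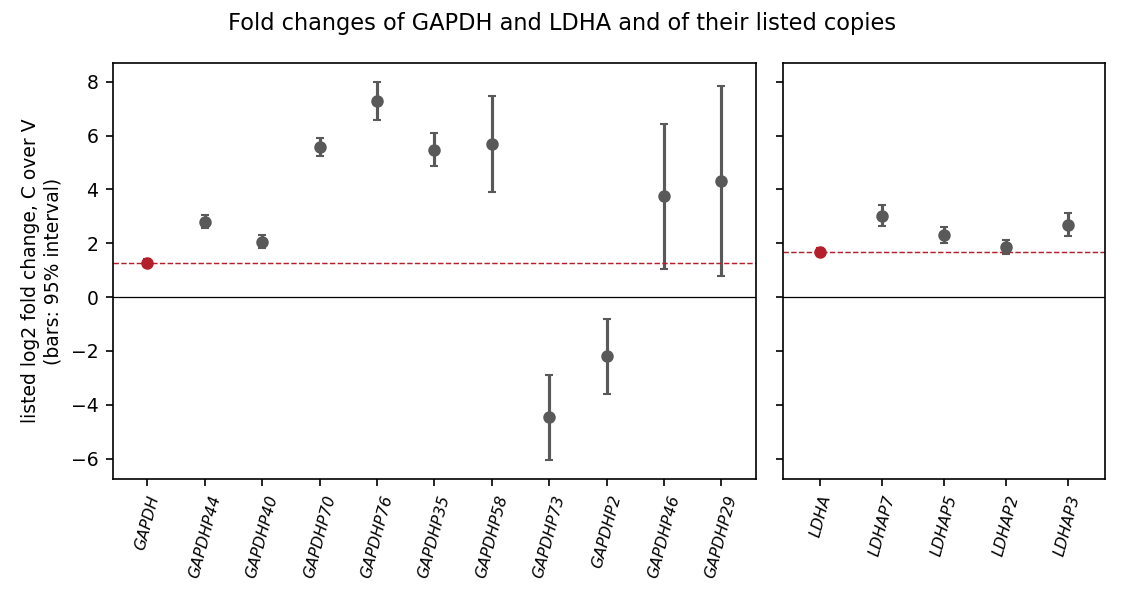
Listed log2 fold change of C over V with its 95% interval for GAPDH (left) and LDHA (right) in red and for their listed pseudogene copies in grey, ordered by mean; the dashed line marks the parent. Copies of LDHA lie at or above the parent, and of the GAPDH copies 8 lie above the parent and GAPDHP2 and GAPDHP73 below 0.

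PDK1 and PFKFB4 are the members least exposed to shared sequence. For PDK1 0.129% of its 50-base words occur in any other gene, and for PFKFB4 none of 4139 do. For GPI 11.4% do, of which 445 words of 5195 belong to AC092073.1, a gene model that overlaps GPI on the same strand and was not among the listed genes. For PGK1 the share was 4.34%. In all, 10 other gene models overlap the members, and 2 of these were listed. The antisense model AC006064.4 at GAPDH was called at 1.44 ± 0.62 in the authors' deposited table, with derived levels of 12.0 in C and 4.41 in V. The intronic model AC084117.1 at LDHA (1.97 ± 0.98 in the authors' deposited table) was not called. Whether reads were counted by strand is not given in the sources used here, so reads of AC006064.4 and GAPDH cannot be told apart.

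Facts of the whole table bear on these values. Of its 6018 genes, 5380 (89.4%) were called, 2771 toward C and 2609 toward V. Of 15 markers of prostate luminal cells and the C4-2B line, 4 were listed, with KLK3, KLK2 and TRPM8 higher in C and KRT8 higher in V. Of 12 leukocyte markers 7 were listed and 6 called, all 6 higher in V. Among all protein-coding genes of GENCODE release 29, 13.7% were called, 9.03% toward V. The 7 listed leukocyte markers had derived levels of 0.158 to 0.907 in C and 3.67 to 35.7 in V. Of 8 endothelial markers 3 were listed and called, at 0.161 to 4.83 in C and 13.4 to 30.8 in V. Of 10 fibroblast markers 3 were listed, at 8.49 to 72.4 in C and 2.96 to 294.2 in V, and of 7 neuroendocrine markers none. The part of any of these cell types in the members' differences was not tested.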

How the data were processed

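RNA sequencing covered 6 libraries, 3 per cell line as the labels group them; reads were single-end, 50 bases, from 1 µg total RNA, and 2 library kits are named in the labels' protocols. The labels do not say that libraries came from separate cultures, so the spread behind the listed p-values may be partly or wholly technical. The single deposited table holds the authors' DESeq2 comparison, per the file headers: the mean normalised count is a signal, the log2 fold change is a maximum likelihood estimate, the columns for standard error and Wald statistic are scores, and the p-value and Benjamini-Hochberg adjusted p-value come from the Wald test. The submitters' processing notes name FastQC and Cufflinks 2.2.1 without a role. Aligner, counter, build and depth per library: not given in the sources used here.

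No test across libraries could be run, so the fallback written in the design was used: values as listed, called at adjusted p under 0.05. An adjusted p of 0 beside a p above 0 (4 genes) was read as not given. Derived levels, lengths, 50-base words (GENCODE release 29, which holds 5935 of the identifiers; need not be the authors' annotation), identities (blastn 2.17.0) and motifs (RefSeq windows) were computed with Python 3.11.15 and pandas 2.3.3; the derivation of levels was tested on simulated data. The named genes are the members, every listed gene of the lists, the 2 nearest genes by fold change per member and examples of the copies, here the most abundant and the exceptions in direction; a few genes that this rule names are counted but not reported here. Members and lists were chosen with earlier results of these data known. Alternatives were other call rules, another reference or shrinkage for fold changes, unequal library numbers, transcript length and the promoter set.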

Additional observations from a re-analysis of the deposited data

How the results depend on the processing

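All 6 genes stayed called and higher in C with an adjusted p under 0.01, with a 95% interval wholly beyond a log2 fold change of 1 and with a mean of at least 100. When a size of at least 1.5 was also required, 4 of the 6 stayed called and the glycolysis enzymes fell from 4 called to 2. At a size of at least 2, 0 members and 0 glycolysis enzymes stayed called, since the largest value was 1.75, and the pathway genes went from 30 to 10. Taken relative to the median of called protein-coding genes, -1.55, the members' fold changes were 2.77 to 3.30; neither this nor shrinkage can turn their direction. Summing parent and listed copies, chosen after the data were seen, moved LDHA to 1.78 and GAPDH to 1.44. Only copies that passed the limits of the list entered these sums. The derived levels summed over the members were 49999 in C and 19446 in V. They became 45947 and 17886 with 3 libraries in C and 2 in V, and 54844 and 21308 with 2 and 3. With listed protein-coding genes as the promoter set, the shares were 36.6% for GCGTG, 6.64% for CACGTG and 9.63% for TATAAA.

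No paired analysis was possible because the table holds no column per library. For the same reason the fits without each replicate and with another normalisation or filter were not run, and the influence of a single library on any member is unknown. Depth per library is unknown; PFKFB4 had the lowest mean of the 6 genes, 200.5, and the widest standard error, 0.15.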
